A study of Homo sapiens with 3 samples.

Results

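The genes described here encode chromatin remodelling enzymes, their complex subunits and bromodomain proteins. They were taken as every gene in the value table whose current symbol starts with SMARC, INO80 or ACTL6, is CHD1 to CHD9 with or without an L, is ARID, BRD or BAZ followed by a digit, or is BPTF, MTA1 to MTA3 or MBD3. The rule found 49 genes, read by 59 probes, among the 16225 named genes of the table; it used names only and no measured value. MBD3, SMARCA1, SMARCD2, CHD3, BRD1, ARID4A and ARID5A are not analysed here. The samples are 3 human embryonic stem (ES) cell lines, ES01, BG03 and H9, each grown on irradiated mouse embryonic fibroblasts in DMEM/F12 with serum replacement and FGF2. Each line gave total RNA for 1 Illumina bead array, and the lines form 1 group of 3. No genotype change or treatment separates them, and what differs by line, culture or array cannot be told apart. The mouse cells to which the study compared them are not analysed here.

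Chromatin remodellers use the energy of ATP to slide, evict or exchange nucleosomes, and are sorted by their ATPase into the SWI/SNF (BAF and PBAF), ISWI, CHD and INO80 families. Bromodomains bind acetylated lysines, as on histone tails, and bring proteins such as BRD2 and BRD3 to active chromatin. In mouse ES cells the BAF complex is known for a particular choice of paralogues, with SMARCA4, SMARCC1, SMARCD1 and ACTL6A, whereas mouse neurons exchange ACTL6A for ACTL6B.

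The promoters of 38 of the 49 genes were in a RefSeq table of the GRCh38.p14 build, as 250 bases before and 50 after the annotated start. They were rich in CpG, the dinucleotide that vertebrate DNA methylation acts on. A ratio of observed to expected CpG above 0.6 was found in 33 of 38 (86.8%), against 68.7% of the promoters of all measured genes and 48.9% of all 27305 promoters. Among members that passed array background in every line 30 of 31 had such a promoter (96.8%), against 84.1% of all genes that passed. Of the 6 members above background in no line 2 had one (33.3%), against 40.1% of all genes above background in none. The share was higher among detected genes, for these genes as for all measured genes.

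4 promoters are shown, 5′ to 3′ on the gene's strand with each CpG in capitals. SMARCA5 (chr4:143513452-143513751, plus strand) is the member that differed most between any 2 lines, SMARCD3 (chr7:151277100-151277399, minus strand) is the member with the next largest difference, and CHD1 (chr5:98928958-98929257, minus strand) and CHD2 (chr15:92900074-92900373, plus strand) are paralogues of which CHD1 was above background and CHD2 was not.
SMARCA5: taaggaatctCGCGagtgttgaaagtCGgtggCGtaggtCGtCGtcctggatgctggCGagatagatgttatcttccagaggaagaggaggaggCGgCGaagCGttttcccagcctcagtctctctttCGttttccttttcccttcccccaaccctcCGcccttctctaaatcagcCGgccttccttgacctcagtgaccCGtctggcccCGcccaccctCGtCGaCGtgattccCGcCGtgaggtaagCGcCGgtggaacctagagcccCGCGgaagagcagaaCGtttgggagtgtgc
SMARCD3: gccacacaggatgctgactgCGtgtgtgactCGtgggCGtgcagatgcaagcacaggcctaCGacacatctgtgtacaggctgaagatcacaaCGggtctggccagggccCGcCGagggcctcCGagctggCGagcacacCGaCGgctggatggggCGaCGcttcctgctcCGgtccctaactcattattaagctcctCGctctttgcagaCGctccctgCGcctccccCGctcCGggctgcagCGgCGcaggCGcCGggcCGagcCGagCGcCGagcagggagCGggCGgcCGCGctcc
CHD1: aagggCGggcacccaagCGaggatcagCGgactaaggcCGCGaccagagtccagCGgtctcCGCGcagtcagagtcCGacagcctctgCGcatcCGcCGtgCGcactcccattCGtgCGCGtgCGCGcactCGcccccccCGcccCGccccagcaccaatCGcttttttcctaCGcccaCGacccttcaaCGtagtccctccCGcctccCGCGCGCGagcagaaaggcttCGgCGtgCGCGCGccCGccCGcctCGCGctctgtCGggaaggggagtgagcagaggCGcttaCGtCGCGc
CHD2: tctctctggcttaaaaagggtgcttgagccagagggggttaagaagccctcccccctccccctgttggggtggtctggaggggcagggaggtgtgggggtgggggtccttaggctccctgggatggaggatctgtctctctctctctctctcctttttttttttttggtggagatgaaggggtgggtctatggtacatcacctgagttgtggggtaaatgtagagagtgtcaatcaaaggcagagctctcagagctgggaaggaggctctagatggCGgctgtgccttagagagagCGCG
The CHD1 window held 44 CpGs, with an observed to expected ratio of 1.21, and the CHD2 window 3, with a ratio of 0.139. The SMARCA5 and SMARCD3 windows held 25 and 31, so the members that differed most in level between lines had CpG-rich starts like most of the others. Other paralogue pairs did not all go as CHD1 and CHD2. ARID1A, not above background, had 33 CpGs and a ratio of 0.786, and ARID1B, above background, 5 and 0.487. BAZ2A, not above background, had a ratio of 0.366, and BAZ2B, above background, 0.922. Each window covers only the start given in the table.

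6 short motifs were searched on both strands of the 38 windows. The GC box (GGGCGG), in which letters may overlap a CpG, was in 31 (81.6%), against 44.6% of all promoters and 60.7% of those of measured genes. The CCAAT box (CCAAT) was in 8 (21.1%, against 35.7% of all promoters), an ETS core (CCGGAAG) in 6 (15.8%, against 10.7% of all promoters and 14.9% of those of measured genes), the E-box (CACGTG) in that of CHD9 alone (2.63%, against 7.43%), and the TATA box (TATAAA) in that of ARID5B alone (2.63%, against 12%). The NRF1 core, searched as a palindrome, was in none, against 1.36%. These matches describe the windows, and no binding was measured.

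Intensities are given in array units after quantile normalization. A gene counted as above background in a line when it passed the 95th percentile of 215 olfactory receptor probes on that array, which was 13.3 units in ES01, 12.6 in BG03 and 11.2 in H9. Levels of different probes depend on probe sequence, so no gene's level was set against another's, and a gene not above background is not shown to be absent. Each array carried 2089034 to 2102778 beads. Within an array, the beads of 1 type gave a log2 mean with a median SE of 0.0348 to 0.0356 at 1000 to 5000 units and of 0.0599 to 0.0613 at 100 to 200 units. The 95th percentile of this SE was highest in BG03. At 500 to 1000 units it was 0.0973 in BG03, 0.0588 in ES01 and 0.0569 in H9. At 1000 to 5000 units it was 0.089 in BG03, 0.053 in ES01 and 0.0505 in H9. The SE of beads does not cover error between arrays. A pair of lines has 1 array a side and so no test, and the number of arrays limits the precision of every difference. Of the ES cell markers measured, POU5F1, NANOG, LIN28A, DNMT3B, SALL4, DPPA4 and ZFP42, 7 of 7 were above background in all 3 lines. They were not all level. ZFP42 had 247 in ES01, 780 in BG03 and 364 in H9, and POU5F1 195 in ES01, 287 in BG03 and 270 in H9. LIN28A, DNMT3B, SALL4 and DPPA4 were highest in ES01 and NANOG in H9. Fibroblast markers were above background in all 3 lines for 3 of 8 (COL1A1, COL1A2 and THY1) and neuron markers for 2 of 7 (TUBB3 and DCX). COL3A1 and POSTN were above background in no line. The 8 fibroblast markers summed to 1535 in ES01, 1182 in BG03 and 1138 in H9, highest in ES01. Most of each sum was THY1, with 824 in ES01, 851 in BG03 and 752 in H9, highest in BG03. COL1A2, with 582 in ES01, 229 in BG03 and 310 in H9, was highest in ES01, as were COL1A1 and TWIST1. LUM was above background in BG03 alone, and DCN was highest in H9. The part of these markers in the differences below was not tested.

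Most of the genes were above background. The threshold was passed in every line by 42 of the 49 (85.7%), a share that was 59.8% over all 16225 genes. ARID3C passed in ES01 and H9, and ARID1A, BAZ2A, CHD2, INO80D, BRD8 and ARID5B passed in none (12.2%, against 32.2% of all genes). The count was 40 with the 99th percentile as background. Partner subunits of the same complexes and related genes that the naming rule does not take stood close to this, as 74 of 85 (87.1%) passed in every line.

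**Figure D1:**
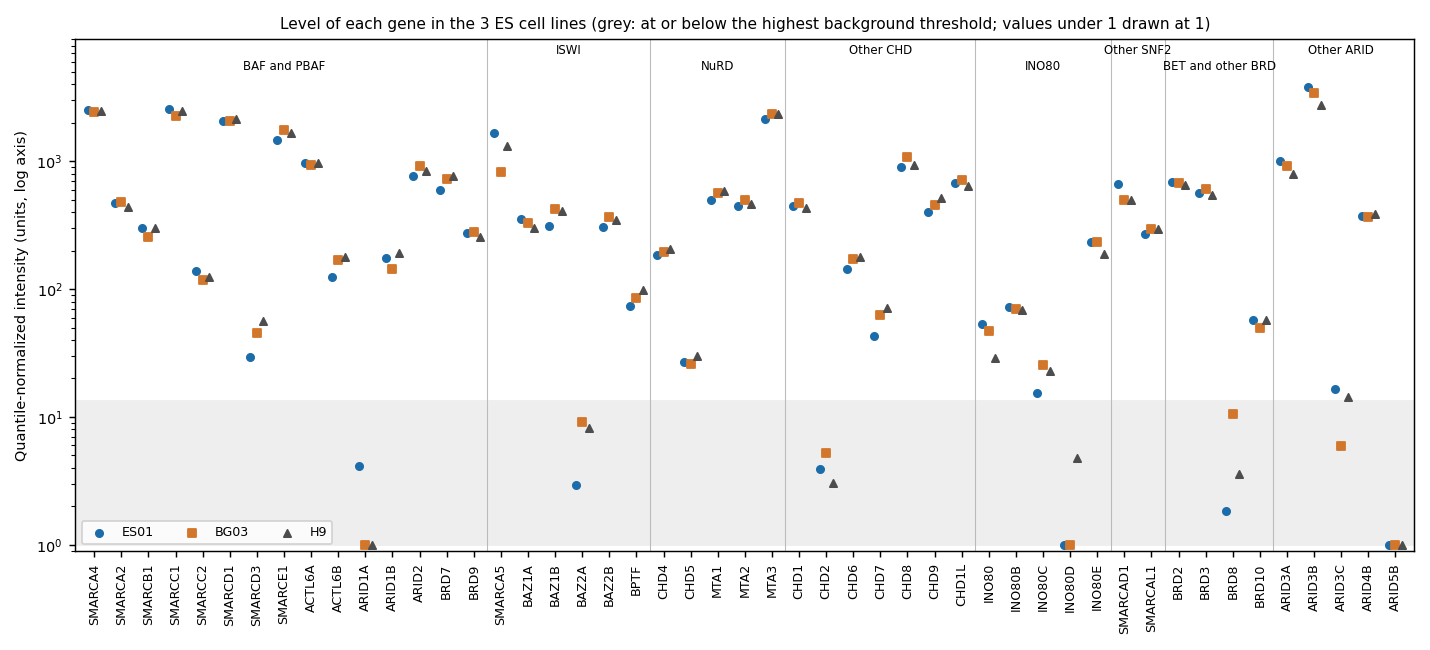
Quantile-normalized intensity (log axis) of each of the 49 genes in ES01 (circles), BG03 (squares) and H9 (triangles), 1 array per line, grouped by complex or family. The 3 marks of a gene mostly lie close together; SMARCA5, SMARCD3, INO80, INO80C and CHD7 are the most spread of those above background. Heights compare lines within a gene, not genes with each other.

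The genes varied little between the lines. Differences were read for the 43 that passed in 1 line or more. Their median range over the 3 lines was 0.24 on the log2 scale, against 0.36 for the 11004 genes that passed the same filter. 26 of the 43 (60.5%) stayed within 1.2-fold, against 35.0% of all genes, and 38 (88.4%) within 1.5-fold, against 74.0%. Dim genes scatter more, so the variance of each gene was also set against that of genes of like intensity. The median of this ratio was 0.524 for the 43 genes and 0.859 for all 11004. A difference of at least 2-fold between any 2 lines was reached by 1 of 43 (2.33%), against 8.29% of all genes. Between ES01 and H9 it was reached by 0 of 43, against 5.14% of all genes (2.9% with ES01 higher and 2.24% with ES01 lower). Between ES01 and BG03 it was reached by 1, SMARCA5, against 3.75% (2.27% with ES01 higher and 1.48% with ES01 lower). Between BG03 and H9 it was reached by 0, against 3.24% (1.74% with BG03 higher and 1.5% with BG03 lower). At least 1.5-fold between any 2 lines was reached by 5 of 43, SMARCA5, SMARCD3, CHD7, INO80 and INO80C, against 26.0% of all genes.

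By pair of lines, the median log2 difference of the 43 genes was -0.05 for ES01 minus H9, -0.02 for ES01 minus BG03 and 0.00 for BG03 minus H9, against 0.01, -0.01 and 0.03 over all genes. The split into higher and lower depended on scaling. Higher values were found for 20 of 43 in ES01 against H9, for 18 in ES01 against BG03 and for 21 in BG03 against H9. The values as deposited gave 24, 18 and 27. With equal array medians they were 6, 3 and 27, and this scaling moved the median of all genes to -0.27 for ES01 minus H9 and to -0.34 for ES01 minus BG03.

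Each gene's variance over the 3 lines was set, by an F-test, against limma's prior variance for genes of like intensity. The prior was fitted to these same genes. The test therefore asks whether a gene stands out from the others, not whether the lines differ. In it, 0 of the 43 and 0 of all 11004 genes (0.0%) passed after adjustment at 0.05, and the robust fit gave 0 as well. At an unadjusted p under 0.05 there was 1 of 43, SMARCA5, against 4.69% of all genes, a share that the fit of the prior largely sets. A count of 0 does not show that the genes were alike in the 3 lines.

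**Figure D2:**
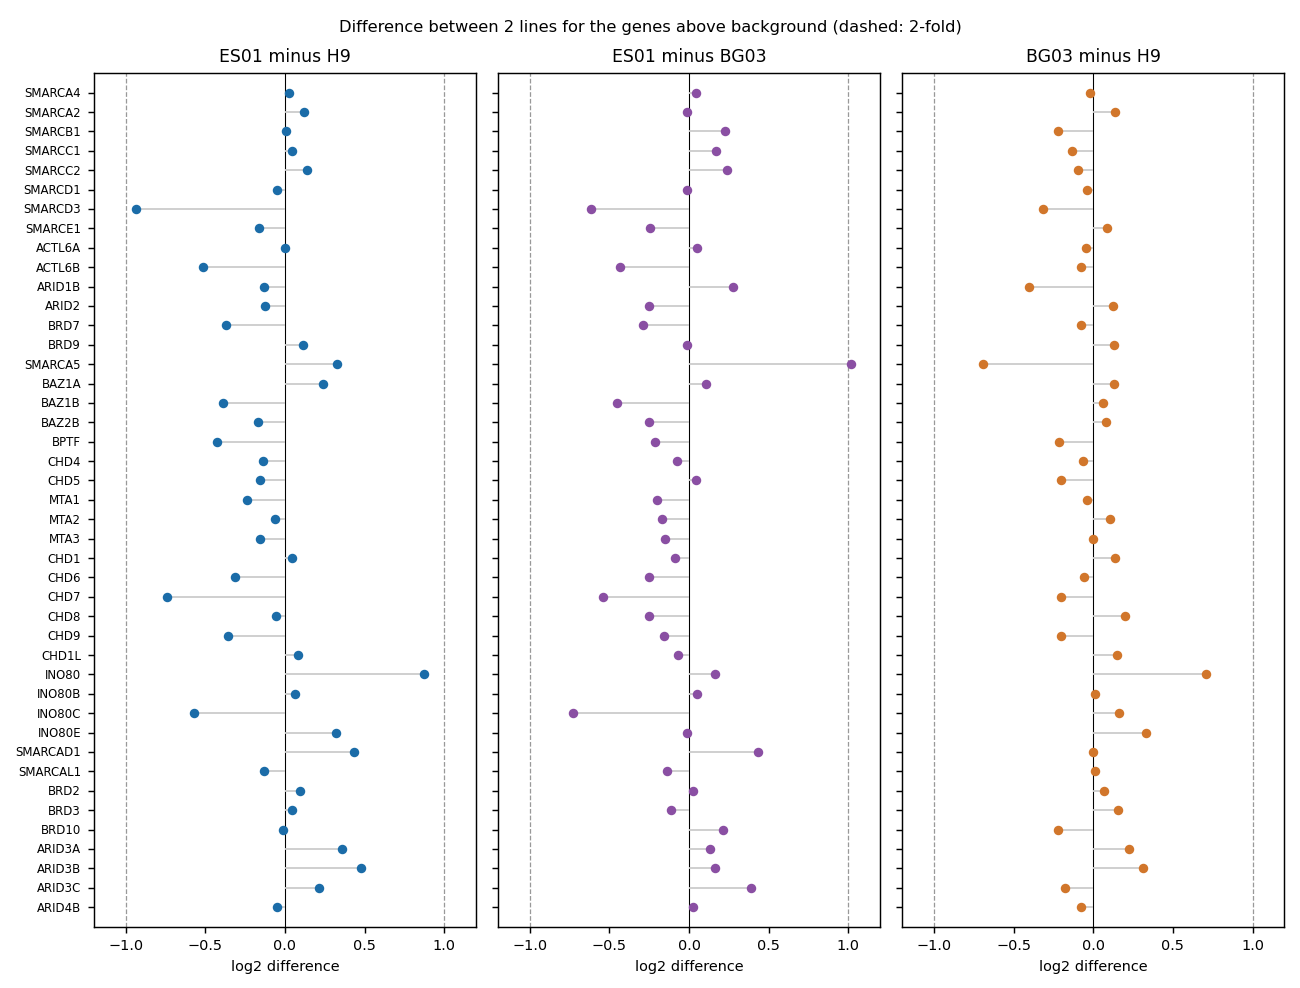
log2 difference of normalized intensity between ES01 and H9 (left), ES01 and BG03 (middle) and BG03 and H9 (right) for the 43 genes whose differences were read; dashed lines mark 2-fold. SMARCA5 in ES01 against BG03, at 1.02, is the point past a dashed line.

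The catalytic and core subunits of BAF were nearly level over the lines. SMARCA4, the ATPase of BAF in mouse ES cells, had intensities of 2529 in ES01, 2451 in BG03 and 2485 in H9 (log2 SD 0.02, n = 3). SMARCA2, the alternative ATPase, had 476.5 in ES01, 480.4 in BG03 and 438 in H9 (log2 SD 0.07, n = 3). The scaffold subunit SMARCC1 measured 2570.0 in ES01, 2281 in BG03 and 2497 in H9 (log2 SD 0.09, n = 3). These values differ by less than 1.2-fold between any lines. SMARCC2, the paralogue of SMARCC1, measured 138 in ES01, 117 in BG03 and 125 in H9 (log2 SD 0.12, n = 3), and SMARCD1, a subunit that contacts transcription factors, 2057 in ES01, 2071 in BG03 and 2129 in H9 (log2 SD 0.03, n = 3). ACTL6A, the actin-related subunit of dividing cells, was at 974 in ES01, 942 in BG03 and 972 in H9 (log2 SD 0.03, n = 3). Both ATPases and both scaffold paralogues were thus above background in every line. The core subunit SMARCB1, a tumour suppressor, had 302 in ES01, 258 in BG03 and 300.2 in H9 (log2 SD 0.13, n = 3), and the HMG-box subunit SMARCE1 1479 in ES01, 1753.5 in BG03 and 1654 in H9 (log2 SD 0.12, n = 3).

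SMARCD3 and ACTL6B, the subunits known for heart and nerve cells in the mouse, lay lowest in ES01. SMARCD3 measured 29.7 in ES01, 45.5 in BG03 and 56.6 in H9 (log2 SD 0.47, n = 3), a log2 difference of -0.93 between ES01 and H9. ACTL6B measured 125 in ES01, 169.5 in BG03 and 179 in H9 (log2 SD 0.28, n = 3), with -0.51 between ES01 and H9. For both genes the BG03 and H9 values stand nearer to each other than to ES01. SMARCD3 is dim, and with a floor of 50 units its difference between ES01 and H9 was -0.18. The summed intensity of the 7 neuron markers was 1671 in ES01, 1381 in BG03 and 1424 in H9, nearly all of it TUBB3 (1575 in ES01, 1269 in BG03 and 1348 in H9). Among the other markers, DCX was highest in BG03 and STMN2 lowest in ES01, unlike TUBB3. SYP was above background in ES01 alone (13.8 units) and NEFL in H9 alone (12.7 units). MAP2 and SNAP25 were above background in no line. The part of neuronal RNA in the ACTL6B values was not tested. DPF1, another subunit of neuronal BAF in the mouse, had 66.7 in ES01, 51.0 in BG03 and 48.7 in H9, highest in ES01. ACTL6B and DPF1 were therefore both above background in every line, with opposite ends in ES01.

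Among the subunits that set apart the BAF variants, ARID2, the DNA-binding subunit of PBAF, measured 773 in ES01, 919 in BG03 and 844.5 in H9 (log2 SD 0.12, n = 3). BRD7, a bromodomain subunit of PBAF, measured 597 in ES01, 729.9 in BG03 and 769.5 in H9 (log2 SD 0.19, n = 3), lowest in ES01. BRD9, which marks the non-canonical BAF complex, measured 276 in ES01, 279 in BG03 and 254.5 in H9 (log2 SD 0.07, n = 3). ARID1B, the paralogue of ARID1A in canonical BAF, measured 174 in ES01, 144 in BG03 and 190.4 in H9 (log2 SD 0.21, n = 3) at the probe used, an isoform-specific one, lowest in BG03. ARID1A was not above background at its probe, which reads only some isoforms. Of 15 partner subunits, 13 passed background in every line (86.7%, against 59.8% of all genes) and DPF3 in none. A 2-fold difference between any 2 lines was reached by 0 of the 14 tested, against 8.29% of all genes. PBRM1, the bromodomain subunit of PBAF, had 80.3 in ES01, 95.2 in BG03 and 76.4 in H9, and DPF2 611 in ES01, 648 in BG03 and 729 in H9. PHF10, a PBAF subunit, had 1343 in ES01, 1459 in BG03 and 1068 in H9, lowest in H9.

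SMARCA5 was the member with the largest difference. This ISWI ATPase, also called SNF2H, spaces nucleosomes in several complexes, and mouse embryos that lack it die around implantation. Its intensity was 1660.0 in ES01, 819 in BG03 and 1324 in H9 (log2 SD 0.52, n = 3). BG03 stood lowest, 2.03-fold below ES01 and 1.62-fold below H9, while ES01 and H9 differed by 1.25-fold. The log2 difference between ES01 and BG03, 1.02, lies just past 2-fold, which 2.27% of all genes reached in that direction. Without BG03 or without ES01 no member differed 2-fold. The range over the lines was larger in 851 of the 11004 genes (7.73%). Its unadjusted p in the F-test of variance against limma's prior was 0.0159 and its adjusted p 0.978. Scaled to the same median, the difference was 0.67, where the median of all genes was at -0.34. SMARCA5 was read by 1 probe, so no other probe bears on it.

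BAZ1A, BAZ1B and BPTF, which pair with SMARCA5 or its close relatives, did not share its low value in BG03. BAZ1A, the partner in the ACF complex, measured 356.4 in ES01, 331 in BG03 and 302 in H9 (log2 SD 0.12, n = 3). BAZ1B, the partner in the WICH complex, measured 312 in ES01, 426 in BG03 and 409 in H9 (log2 SD 0.24, n = 3), lowest in ES01. BPTF, the large bromodomain subunit of NURF, measured 73.3 in ES01, 85.0 in BG03 and 98.5 in H9 (log2 SD 0.21, n = 3). BG03, the line in which SMARCA5 was lowest, held the highest BAZ1B value and the middle value of BAZ1A and BPTF. BAZ2B measured 307 in ES01, 365 in BG03 and 345 in H9 (log2 SD 0.13, n = 3), and BAZ2A, a subunit of the nucleolar NoRC complex, was not above background. RSF1, the partner in the RSF complex, had 245 in ES01, 225 in BG03 and 256 in H9, lowest in BG03 but within 1.2-fold. CHRAC1 and POLE3, small histone-fold partners, were above background in every line.

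The 5 NuRD members stood slightly lower in ES01 than in H9, while their partner subunits did not share a direction. The complex joins a CHD ATPase to histone deacetylases, and MTA proteins are its scaffold. CHD4, the main ATPase, measured 186 in ES01, 196 in BG03 and 205 in H9 (log2 SD 0.07, n = 3), and CHD5, its paralogue known from nervous tissue, 26.8 in ES01, 26.1 in BG03 and 29.9 in H9 (log2 SD 0.11, n = 3). MTA1 measured 497 in ES01, 570.0 in BG03 and 586.5 in H9 (log2 SD 0.13, n = 3), MTA2 447 in ES01, 502 in BG03 and 467 in H9 (log2 SD 0.09, n = 3) and MTA3 2127 in ES01, 2362.5 in BG03 and 2368 in H9 (log2 SD 0.09, n = 3). The log2 differences between ES01 and H9 were -0.24 to -0.06, below 0 for 5 of 5, where 51.8% of all genes were above 0. Each is small, none of the 5 reached 1.2-fold, and CHD5 was lowest in BG03. All 9 partners measured passed background in every line, where the share of all genes was 59.8%. Of these partners, 5 of 9 were higher in ES01 than in H9 and 6 of 9 higher in ES01 than in BG03. The shares of all genes with ES01 higher were 51.8% and 49.1%. HDAC1, a deacetylase, had 2129 in ES01, 2538 in BG03 and 2476 in H9, and HDAC2 3631 in ES01, 2845 in BG03 and 3385 in H9. The histone-binding subunits differed most, RBBP4 with 710.2 in ES01, 708 in BG03 and 1110.3 in H9 and RBBP7 with 1495 in ES01, 2172 in BG03 and 1765 in H9. RBBP4 was highest in H9 and RBBP7 in BG03.

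The other CHD genes above background were all lower in ES01 than in BG03. CHD7, which acts at enhancers and is mutated in CHARGE syndrome, measured 42.9 in ES01, 62.3 in BG03 and 71.7 in H9 (log2 SD 0.38, n = 3), with a log2 difference of -0.74 between ES01 and H9, or -0.52 with a floor of 50 units. CHD8, known from autism genetics, measured 908 in ES01, 1082.5 in BG03 and 943 in H9 (log2 SD 0.13, n = 3). CHD9 measured 405 in ES01, 452 in BG03 and 519 in H9 (log2 SD 0.18, n = 3) and CHD6 144 in ES01, 172 in BG03 and 179 in H9 (log2 SD 0.17, n = 3). CHD7, CHD9 and CHD6 share an order, with ES01 lowest and H9 highest, which CHD8 does not. CHD1, which binds trimethylated histone H3 lysine 4 and keeps chromatin open in mouse ES cells, measured 447 in ES01, 476 in BG03 and 433 in H9 (log2 SD 0.07, n = 3). CHD1L, a DNA repair remodeller, measured 679.7 in ES01, 713 in BG03 and 643 in H9 (log2 SD 0.07, n = 3). The log2 difference between ES01 and BG03 was below 0 for 6 of 6 genes (-0.54 to -0.07), as it was for 25 of all 43 members, and 49.1% of all genes were above 0.

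INO80 and 3 of its 4 named subunits were above background, all 4 higher in BG03 than in H9. INO80, the ATPase of a complex that moves nucleosomes and removes the histone variant H2A.Z, measured 52.9 in ES01, 47.3 in BG03 and 28.9 in H9 (log2 SD 0.46, n = 3), lowest in H9. Its difference between ES01 and H9 was 0.87, but 0.08 with a floor of 50 units. INO80B measured 72.2 in ES01, 69.7 in BG03 and 69.0 in H9 (log2 SD 0.03, n = 3), and INO80E 234 in ES01, 236 in BG03 and 187.5 in H9 (log2 SD 0.19, n = 3). INO80C measured 15.4 in ES01, 25.5 in BG03 and 22.8 in H9 (log2 SD 0.38, n = 3), lowest in ES01, where it is close to background. The ATPase and INO80C thus stood in opposite order in ES01 and H9. INO80D was not above background. The log2 difference between BG03 and H9 was above 0 for 4 of 4 genes (0.01 to 0.71), where 53.7% of all genes were above 0, and for 2 of 4 with a floor of 50 units. With that floor the INO80 difference between BG03 and H9 and the INO80C difference between ES01 and BG03 were 0. Of 24 partners in the INO80, SRCAP and TIP60 complexes, 22 passed background in every line (91.7%, where all genes had 59.8%). The ATPases RUVBL1 (1085 in ES01, 1114.5 in BG03 and 1244 in H9) and RUVBL2 (376 in ES01, 407 in BG03 and 422 in H9) were near level. ACTR6, an actin-related subunit of SRCAP, had 609.7 in ES01, 411 in BG03 and 542 in H9, lowest in BG03. NFRKB and EP400 were above background in no line.

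Among other SNF2 ATPases, SMARCAD1, which acts behind replication forks, measured 671 in ES01, 497 in BG03 and 497 in H9 (log2 SD 0.25, n = 3), highest in ES01. SMARCAL1, which remodels stalled forks, measured 269.5 in ES01, 297 in BG03 and 295 in H9 (log2 SD 0.08, n = 3). Related ATPases outside the naming rule passed background in every line in 9 of 13 cases (69.2%), near the 59.8% of all genes. HELLS, a remodeller needed for DNA methylation, had 1071 in ES01, 644 in BG03 and 835 in H9, lowest in BG03 as SMARCA5 was. HLTF, a ubiquitin ligase that remodels replication forks, had 401 in ES01, 455 in BG03 and 703 in H9, highest in H9. ATRX, which deposits histone H3.3, had 652 in ES01, 501 in BG03 and 636.5 in H9.

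BRD2, BRD3 and BRD10 were near level. BRD2, a BET protein that binds acetylated histones, measured 692 in ES01, 679 in BG03 and 648.5 in H9 (log2 SD 0.05, n = 3), and its paralogue BRD3 564 in ES01, 610.1 in BG03 and 548 in H9 (log2 SD 0.08, n = 3). BRD10 measured 57.4 in ES01, 49.5 in BG03 and 57.8 in H9 (log2 SD 0.13, n = 3). BRD8, a subunit of TIP60, was not above background at its probe, which reads only some isoforms. Of 23 other bromodomain genes, 19 passed background in every line (82.6%, where all genes had 59.8%). The testis gene BRDT, SP140 and KMT2A passed in none. BRPF3, a scaffold of histone acetyltransferase complexes, had 785 in ES01, 919 in BG03 and 704 in H9, and the ATPase ATAD2 219 in ES01, 275 in BG03 and 244 in H9; both were highest in BG03. TAF1L, a retrocopy of TAF1 in which probes may read both genes, had 22.6 in ES01, 39.6 in BG03 and 58.5 in H9. Its log2 difference between ES01 and H9 was -1.37, and that of TAF1 was -0.33. TAF1L was the partner gene past 2-fold, 1 of 77 tested (1.30%, against 8.29% of all genes). TAF1L is dim, and its values in ES01 and BG03 lie under the floor of 50 units used for other dim genes.

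Among ARID genes outside BAF, ARID3A and ARID3B had their lowest values in H9. ARID3A, a DNA-binding factor, measured 1013 in ES01, 926 in BG03 and 791 in H9 (log2 SD 0.18, n = 3), and its paralogue ARID3B 3836 in ES01, 3419 in BG03 and 2749 in H9 (log2 SD 0.24, n = 3). ARID4B, a subunit of the SIN3 deacetylase complex, measured 374 in ES01, 367.5 in BG03 and 387 in H9 (log2 SD 0.04, n = 3) at its all-isoform probe, and ARID3C stood near background with 16.5 in ES01, 5.93 in BG03 and 14.2 in H9. Of these 4 genes 4 were higher in ES01 than in BG03, where 49.1% of all genes were above 0. ARID3C was not above background in BG03 and was set to the threshold there, so its direction was fixed by the filter. The count was 3 with a floor of 50 units and 1 with equal array medians. ARID5B was not above background.

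Paralogues were compared by how their ratio changed between lines, since the efficiency of each probe then cancels. Of 23 pairs listed, 16 had both genes measured and 13 had both above background in at least 1 line. No ratio changed 2-fold, and 10 of 13 (76.9%) stayed within 1.5-fold in every comparison of lines. The share among ratios of other gene pairs was not computed, so these counts do not show that paralogue ratios are unusually stable. The ratio of SMARCA4 to SMARCA2 changed by -0.10 on the log2 scale between ES01 and H9, 0.06 between ES01 and BG03 and -0.15 between BG03 and H9. That of SMARCC1 to SMARCC2 changed by -0.10, -0.06 and -0.04 for the same comparisons. The RNA ratios of these ATPase and scaffold paralogues thus changed little between the 3 lines. Which paralogue the BAF complex holds was not measured. ARID3A to ARID3B, CHD4 to CHD5, CHD6 to CHD9, BRD2 to BRD3, MTA1 to MTA2 and MTA1 to MTA3 changed by at most 0.18 in size.

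The 3 ratios past 1.5-fold all did so between ES01 and H9. SMARCD1 over SMARCD3 was 1.84-fold higher in ES01 than in H9, BAZ1A over BAZ1B 1.55-fold higher, and CHD7 over CHD8 was 1.61-fold lower. ACTL6A over ACTL6B was 1.43-fold higher in ES01 than in H9, and BRD7 over BRD9 1.4-fold lower. SMARCD3, ACTL6B and CHD7 carried most of the change in their pairs, since the log2 differences of SMARCD1, ACTL6A and CHD8 between ES01 and H9 were -0.05, 0.00 and -0.05. With a floor of 50 units the differences of SMARCD3 and CHD7 were -0.18 and -0.52, so the sizes of these 2 ratio changes depend on dim signals. The ratios rest on 1 array per line and carry no test.

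**Figure D3:**
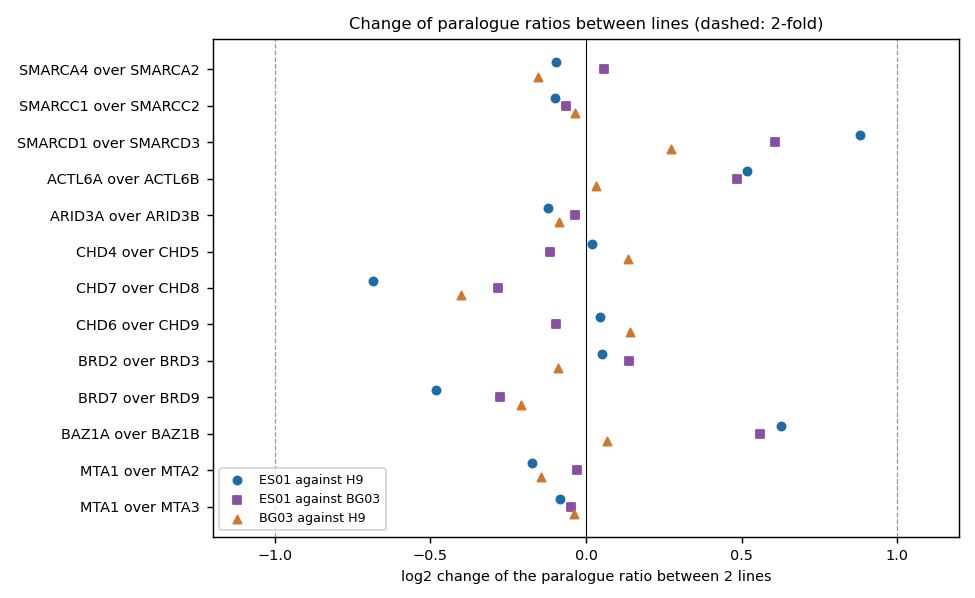
log2 change of the ratio of 2 paralogues between ES01 and H9 (circles), ES01 and BG03 (squares) and BG03 and H9 (triangles) for 13 pairs; dashed lines mark 2-fold. No point passes a dashed line, and SMARCD1 over SMARCD3 in ES01 against H9, at 0.88, lies farthest from 0; SMARCD3 itself differed by -0.18 with a floor of 50 units.

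By Illumina's naming convention, the ending of a probe name marks probes that read all isoforms of a gene, isoform-specific probes, and probes of genes with 1 known transcript at design. The convention is not stated in the files, and which isoforms a probe reads was not checked. The 9 all-isoform probes of these genes passed background in every line, as did 63.0% of such probes in the table. Of 13 isoform-specific probes 6 did (46.2%, against 28.2%), and of 37 single-transcript probes 32 (86.5%, against 58.8%). ARID1A, BRD8 and INO80 were read only by an isoform-specific probe. For SMARCA2, SMARCC2 and SMARCD1 the all-isoform probe was above background and 4 of 4 isoform-specific probes were not. SMARCC2 had 138 in ES01, 117 in BG03 and 125 in H9 at its all-isoform probe, while its isoform-specific probes lay between -1.07 and 11.3 units. An isoform-specific probe below background, as for ARID1A and BRD8, therefore leaves the gene's level unknown.

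Isoform-specific probes did not always follow the all-isoform probe of their gene. For ARID4B the all-isoform probe was level, with 374 in ES01, 367.5 in BG03 and 387 in H9, and the isoform-specific probe had 214 in ES01, 235 in BG03 and 132 in H9, lowest in H9. The ratio of the isoform-specific to the all-isoform signal was 1.87-fold higher in BG03 than in H9 and 1.67-fold higher in ES01 than in H9. For BAZ1A the isoform-specific probe had 104 in ES01, 136 in BG03 and 82.1 in H9, and its ratio to the all-isoform probe was 1.51-fold higher in BG03 than in H9. For BPTF the more variable isoform-specific probe had 36.8 in ES01, 63.2 in BG03 and 71.4 in H9, lowest in ES01 like the all-isoform probe, and their ratio changed by -0.53 on the log2 scale between ES01 and H9. The ARID1B probes disagreed, since the all-isoform probe, with 48.1 in ES01, 60.0 in BG03 and 70.3 in H9, was lowest in ES01 and the isoform-specific probe above background in BG03.

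**Figure D4:**
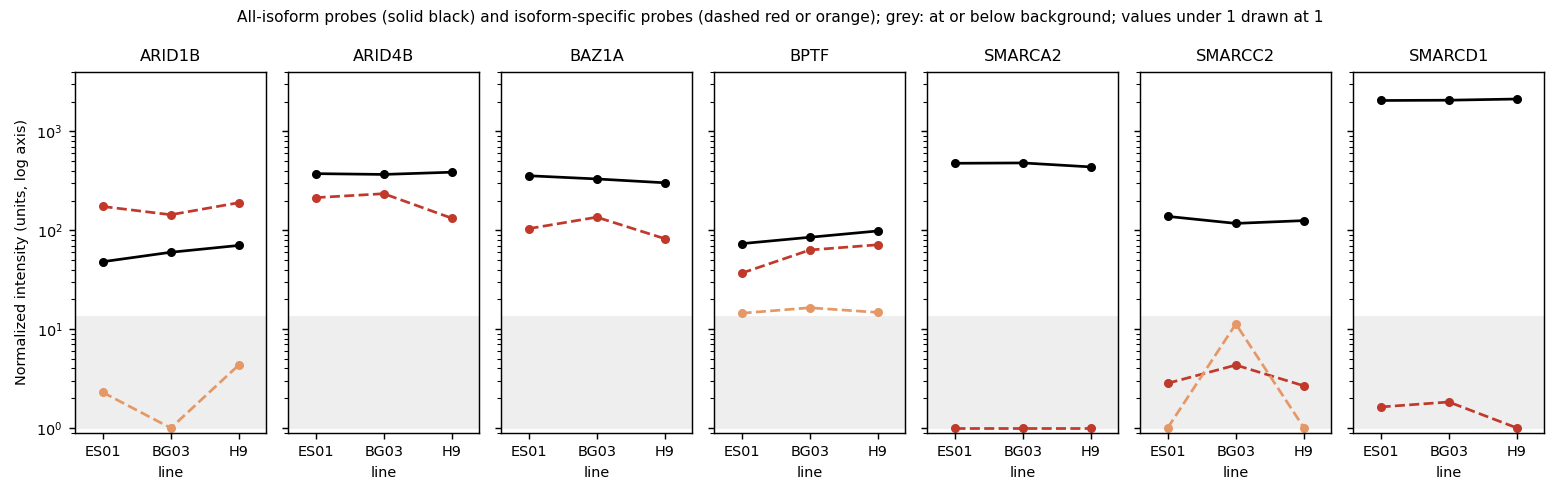
Normalized intensity (log axis) in ES01, BG03 and H9 of the all-isoform probe (solid) and the isoform-specific probes (dashed) of the 7 genes read by several probes; the grey band is at or below background. The dashed line of ARID4B drops in H9 while the solid line stays level, and the dashed lines of SMARCA2, SMARCC2 and SMARCD1 lie in the band.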

How the data were processed

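Total RNA of 3 human ES cell lines was extracted with TRIzol and labelled with Cy3 for Illumina whole-genome arrays, per the labels' protocols. The values the authors deposited are 1 linear intensity per probe and array. The share below 0 was 26.3% in ES01, 32.8% in BG03 and 33.8% in H9, and the medians were 4.4, 3.5 and 3.5. The sources used here do not give the software or a scaling step. Bead files hold 1 green intensity per bead and served for bead error, leaving out beads over 3 median absolute deviations.

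Of 47293 probes 18468 have 1 symbol and 28825 are unnamed here; 18451 matched GRCh38.p14 gene IDs. Quantile normalization, without 4 control probes, used limma 3.58.1 under R 4.3.3. The probe with the highest mean stood for a gene, and values under the threshold were set to it before log2. Differences were taken for genes that passed in 1 line or more. The variance test was an F-test of each gene's variance against limma's prior variance. It used an intensity trend and Benjamini-Hochberg adjustment over 11004 genes, and was tested on simulated data. Python 3.11.15, numpy 2.4.6, pandas 2.3.3 and matplotlib 3.10.9 did the rest. The members, lists, complex groups and promoters shown were chosen with earlier results of these data known. Every member was named. Values by line were fixed for members at least 2-fold apart, catalytic ATPases and paralogue pairs, and are given for the other members too. Of the partner genes, those at least 2-fold apart and up to 8 per list in list order were to be named. The naming passed over some in that order, such as ACTR5, BRPF1 and RAD54L, so the named genes do not stand for their lists. Some genes above background in no line were named after their values were seen.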

Additional observations from a re-analysis of the deposited data

How the results depend on the processing

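The results were recomputed with other scalings, backgrounds, floors, filters, fold thresholds, priors, probe and gene rules, and without each line. Of the recomputed counts and medians 100 stayed within 1.5 times their count, or within the spread between lines, and 11 moved. The median difference changed sign within that spread, to 0.02 for ES01 minus H9 and 0.08 for BG03 minus H9 with the values as deposited, and to 0.01 for each with no filter on dim genes. Of the recomputed differences of single genes 27 stayed and 13 moved, among them those of SMARCD3, CHD7, INO80 and INO80C with a floor of 50 units. The 42 genes above background ranged from 39 to 43, the 39 with the MTA genes left out. With arrays scaled to the same median, 3 genes differed 2-fold between any lines (SMARCD3, CHD7 and INO80C, and no longer SMARCA5), 2 of them between ES01 and H9, and the median differences were -0.31 for ES01 minus H9 and -0.36 for ES01 minus BG03. With a 1.5-fold threshold, 5 genes (26.0% of all genes) and 3 paralogue ratios passed, with 3 genes in each comparison of ES01 and 2 between BG03 and H9. Leaving out 1 line gave 0 to 1 genes past 2-fold. It kept the scaling and thresholds, so the differences between the remaining lines could not move, and such values are among the 100 that stayed. The variance test called 0 members in each of its 9 alternatives, but also 0 of all genes except with equal array medians, where it called 88 of 11004. No paired analysis was possible because the 3 lines form 1 group. Dim genes such as INO80C lie close to background, which limits their differences.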
